A study of Mus musculus with 8 samples.

Results

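The 37 genes described here encode the proteins that hold intestinal epithelial cells together: tight junctions, adherens junctions, desmosomes, the polarity complexes that place them, and the kinase Mylk. They were picked by name, as the rows of the gene table whose symbol equals one of a list of 37, out of 55487 genes in all, and each symbol matched 1 row. Each value comes from the ileum of 1 irinotecan-treated mouse, sequenced in bulk as poly(A) RNA. Irinotecan, a chemotherapy drug, blocks topoisomerase I and is known to injure the gut lining. Gsdme-/- mice, here Gsdme_KO (4 libraries, KO4, KO5, KO7 and KO8), were compared with Gsdme+/+ mice, here WT (4 libraries, WT3, WT5, WT7 and WT8). Gsdme encodes gasdermin E, which forms membrane pores once a caspase has cut it. All 8 mice received the drug, so each value describes a genotype under treatment; untreated animals were not analysed here. For dose, time after dosing, strain, age and the making of the Gsdme allele, the sources used here give nothing.

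Tight junctions seal the space between neighbouring epithelial cells near their apical end. Claudins form their strands, some sealing and others forming pores for ions or water, and the zonula occludens and cingulin proteins tie the strands to actin. Below them, adherens junctions join cells through E-cadherin and catenins, and desmosomes join the keratin networks of neighbouring cells. In the small intestine the claudins are known to differ between crypt and villus, with Cldn2 mostly in the crypt and Cldn15 along the villus.

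None of the junction genes passed the test between genotypes. Of the 37 members, 35 averaged 10 or more normalized counts across libraries and were tested, and 0 were called higher and 0 lower by limma at an adjusted p under 0.05, against 0.00612% of all 16352 genes tested. Run on the recovered reads, edgeR likewise called 0 members (0.00612% of all genes), as did DESeq2 (0.0553% of all genes, 0.0491% higher and 0.00614% lower). On the normalized counts, limma without KO4 and KO5 also called 0 members (0.00617% of all genes, lower). At an unadjusted p under 0.05 limma listed 0 members higher and 1 lower, Ocln, against 2.61% of all genes higher, 1.77% lower and 4.38% in either direction. The libraries of the genotypes overlapped for all 35 tested members, whereas they did not overlap for 2.5% of all genes tested (1.31% higher and 1.19% lower). Mean log2 values were lower in Gsdme_KO for 29 of the 35 members and higher for 6, with a median log2 fold change of -0.12, while over all genes tested 49.4% were lower and the median was 0.00. The members were measured in the same libraries and are not independent of each other, so that count is a description and not a test. Of the marker lists described below, the 12 epithelial markers had a median of -0.11 with 8 lower. The 15 mature enterocyte markers had a median of -0.63 with 14 lower. The 69 other junction genes tested had a median of 0.01, with 34 lower and 35 higher. How these medians relate to that of the members was not tested. Fold changes here are Gsdme_KO minus WT on the scale log2(normalized count + 1). The pseudocount of 1 draws the fold change of a low gene towards 0, but a library at 0 can move the mean of log2 values the other way, as for Cldn8 below.

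The libraries held 15617407 to 23437343 reads in genes, and Gsdme itself had 113, 187, 634 and 464 normalized counts in KO4, KO5, KO7 and KO8, against 3376, 2169, 3164 and 2696 in WT3, WT5, WT7 and WT8. Each Gsdme_KO library lay below every WT library (log2 difference -3.32, exact permutation p = 0.0286, two-sided, the smallest that 4 against 4 can give). That difference was the lowest log2 fold change of all 16352 genes tested. Even so, the main limma fit called 0 genes lower at an adjusted p under 0.05, so it did not call Gsdme either. In markers of other cell types KO4 and KO5 differed from the remaining 6 libraries. Summed over 8 B cell markers they held 9233 and 5237 normalized counts, against 236 to 312 in KO7 and KO8 and 204 to 308 in WT. Summed over 15 mature enterocyte markers they held 162811 and 255632, against 459636 and 619253 in KO8 and KO7 and 343316 to 613921 in WT. The sum of 12 epithelial markers (keratins, villin, ezrin, intestinal transcription factors and surface proteins) varied less, at 315645 to 366460 in Gsdme_KO and 315441 to 379707 in WT. Within that sum, markers moved both ways in KO4 and KO5, so it does not show a steady epithelial content. Krt18 had 13978 and 14934 there, against 8435 to 10261 in the other libraries. Vil1, which is also in the enterocyte list, had 32151 and 32051, against 36518 to 54319. Mean log2 values were higher in Gsdme_KO for 8 of 8 B cell markers and 6 of 6 T cell markers, and lower for 14 of 15 mature enterocyte markers and 8 of 12 epithelial ones, with 0 called by limma. The 6 T cell markers summed to 1165 and 843 in KO4 and KO5, above every WT library (282 to 456). In KO7 and KO8 they summed to 395 and 402, within the WT range. In bulk tissue, fewer cells of a type and less RNA per cell cannot be told apart. The part that these differences play in the junction values was not tested. Fits without KO4 and KO5 and with an epithelial score, the mean log2 value of the 12 markers, are given below. Against the WT mean that score was -0.22 in KO4, -0.02 in KO5 and -0.18 in WT8. The same mean over the enterocyte markers was -2.38 in KO4 and -1.26 in KO5. A fit with the epithelial score therefore does not adjust for the enterocyte difference.

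The levels of the junction transcripts spanned a wide range. Levels of different genes are compared only as normalized counts per kilobase of merged exon, with exon lengths from GENCODE M21. Epcam, a cell adhesion protein of epithelia, was the most abundant, at 17747 per kilobase in Gsdme_KO and 21024 in WT. Next came Cdh17, the liver-intestine cadherin, at 6233 in Gsdme_KO and 6668 in WT, and Cldn7, a claudin that also lies along the lateral membrane, at 5566 and 6259 in Gsdme_KO and WT. Cdh1, which encodes E-cadherin, stood at 3928 in Gsdme_KO and 3954 in WT, and Ctnnb1, which encodes beta-catenin, at 3386 and 3642 in Gsdme_KO and WT. At the other end, Cldn8 had 5.77 per kilobase in Gsdme_KO and 16.2 in WT, and Cldn1 7.89 and 10.5. A long merged exon length, as for Pard3 (14.5 kb) or Patj (13.1 kb), lowers this figure where most transcripts use a shorter form.

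**Figure D1:**
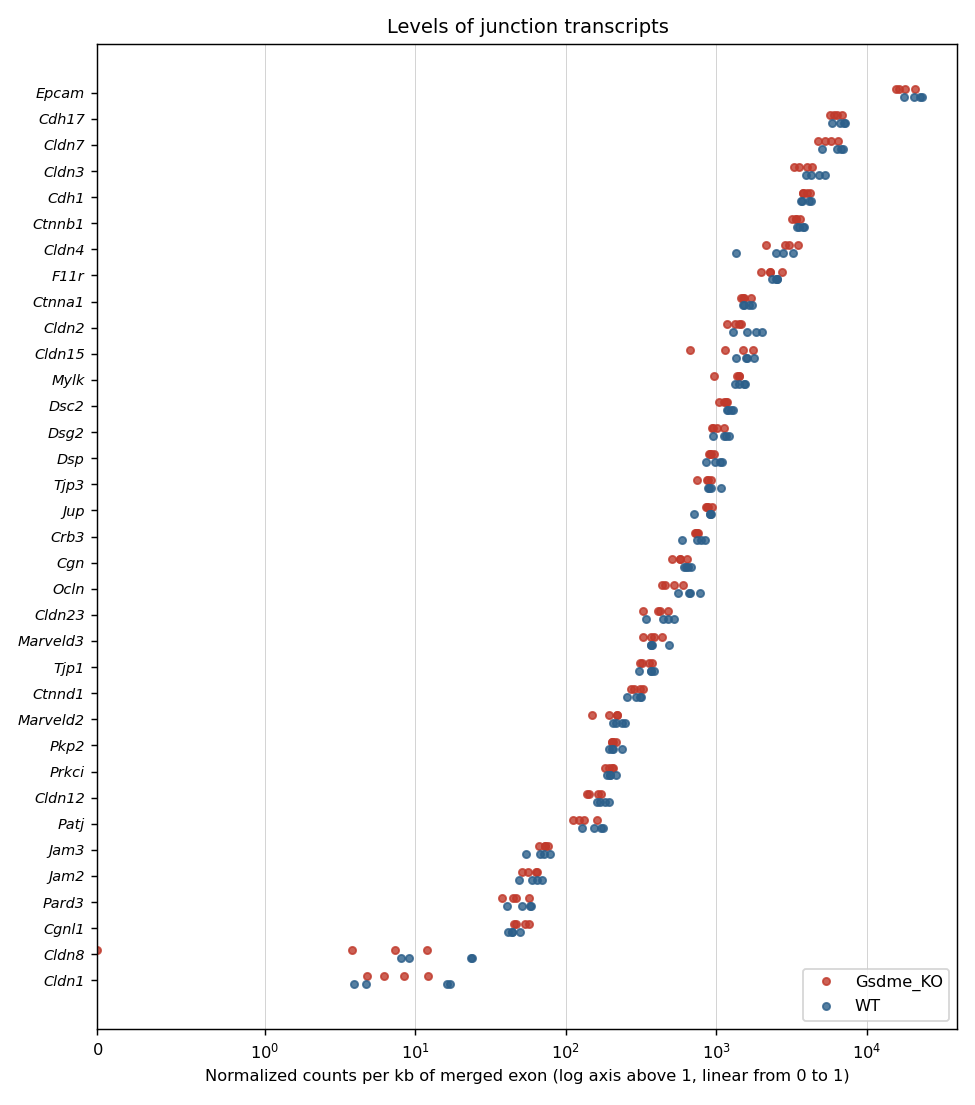
Level of the 35 tested junction genes in each library, as normalized counts per kilobase of merged exon on a log axis that is linear between 0 and 1 (red points, Gsdme_KO; blue points, WT; 4 libraries each). Epcam lies highest and Cldn1 and Cldn8 lowest, Cldn8 is at 0 in KO4, and the red and blue points of each gene overlap.

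Of the 11 claudins, 9 were tested, with 8 lower and 1 higher in mean and a median log2 fold change of -0.20. Their order per kilobase was Cldn7, Cldn3, Cldn4, Cldn2, Cldn15, Cldn23, Cldn12, Cldn8 and Cldn1. Cldn7 exceeded Cldn3 in 8 of 8 libraries, Cldn3 exceeded Cldn4 in 7 of 8 and Cldn4 exceeded Cldn2 in 7 of 8. Cldn2 and Cldn15 did not differ beyond their spread, with Cldn2 the higher in 5 of 8 libraries, 2 of them Gsdme_KO and 3 WT. Cldn8 exceeded Cldn1 in 6 of 8.

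Cldn7 (ENSMUSG00000018569, chromosome 11, 69964779 to 69967885, plus strand, GRCm38) had 10343, 9235, 12493 and 11300 normalized counts in KO4, KO5, KO7 and KO8, against 13078, 12433, 13465 and 9796 in WT3, WT5, WT7 and WT8. The genotypes overlapped, with only KO5 below the lowest WT library (log2 fold change -0.17, SE 0.138, limma adjusted p = 0.849). Cldn3, a sealing claudin (ENSMUSG00000070473, chromosome 5, 134986214 to 134987472, plus strand), had 4105, 5025, 5476 and 4451 in KO4, KO5, KO7 and KO8, against 6048, 5347, 6667 and 4994 in WT3, WT5, WT7 and WT8. KO4 and KO8 lay below every WT library and the other 2 within the WT range (log2 fold change -0.27, SE 0.126, limma adjusted p = 0.849). Cldn3 shares a short stretch of exon (40 bases, 3.18% of its exon length) with the antisense gene Wbscr25.

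Cldn4, on the opposite strand of the same chromosome (ENSMUSG00000047501, chromosome 5, 134945119 to 134946934), was the one tested claudin with a higher mean in Gsdme_KO. It is known as a sealing claudin. Its values were 6354, 5556, 5211 and 3903 in KO4, KO5, KO7 and KO8, against 5012, 4502, 5872 and 2472 in WT3, WT5, WT7 and WT8. Only KO4 exceeded every WT library, and WT8 was the lowest of all 8 (log2 fold change 0.28, SE 0.265, limma adjusted p = 0.849). Without WT8 the log2 fold change was 0.02, and without KO4 it was 0.18.

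Cldn2, which forms pores for sodium and water (ENSMUSG00000047230, chromosome X, 139800828 to 139811386, plus strand), had 4731, 3909, 4451 and 4850 in KO4, KO5, KO7 and KO8, against 5323, 4313, 6137 and 6652 in WT3, WT5, WT7 and WT8. Values in Gsdme_KO were close together and 3 of them lay within the WT range, at the low end of it (log2 fold change -0.31, SE 0.142, limma adjusted p = 0.849, 95% interval -0.63 to 0.02). Cldn15, the other main pore-forming claudin of the small intestine (ENSMUSG00000001739, chromosome 5, 136966616 to 136975858, plus strand), had 1425, 2438, 3726 and 3183 in KO4, KO5, KO7 and KO8, against 3361, 3808, 3409 and 2883 in WT3, WT5, WT7 and WT8. KO4 and KO5 were below every WT library, and KO7 and KO8 lay within the WT range (log2 fold change -0.40, SE 0.268, limma adjusted p = 0.849). Without KO4 and KO5 the log2 fold change of Cldn15 was 0.04, a change of sign, and without KO4 alone it was -0.13. The libraries low in Cldn15 are those low in enterocyte markers and high in B cell markers. Whether these differences bear on Cldn15 was not tested.

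Among the less abundant claudins, Cldn12 had 583, 603, 693 and 730 in KO4, KO5, KO7 and KO8, against 715, 685, 825 and 776 in WT3, WT5, WT7 and WT8 (log2 fold change -0.20, SE 0.104, limma adjusted p = 0.849). KO4 and KO5 lay below every WT library. Cldn23 had 880, 782, 757 and 599.6 in KO4, KO5, KO7 and KO8, against 965, 812, 885 and 632 in WT3, WT5, WT7 and WT8, with KO8 the lowest (log2 fold change -0.12, limma adjusted p = 0.895). Neither gene separated the genotypes.

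Cldn8 and Cldn1 were near the lower limit of the test. Cldn8, a sealing claudin best known from the colon and kidney, had 0, 9.01, 28.0 and 17.3 normalized counts in KO4, KO5, KO7 and KO8, from 0 to 23 reads, against 21.6, 19.1, 55.3 and 56.3 in WT3, WT5, WT7 and WT8, from 16 to 68 reads. KO4, KO5 and KO8 lay below every WT library, and KO7 lay between WT3 and WT7 (limma adjusted p = 0.849). Its fitted log2 fold change was the lowest of the members at -2.02 (SE 0.979), but it rests on the pseudocount and on KO4: it was -1.38 with a pseudocount of 5, -1.52 by edgeR, -1.50 by DESeq2, -0.99 without KO4 and -0.59 without KO4 and KO5. Cldn1 had 59.0, 40.6, 23.1 and 30.1 in KO4, KO5, KO7 and KO8, against 22.7, 19.1, 83.0 and 78.6 in WT3, WT5, WT7 and WT8. All 4 Gsdme_KO libraries lay within the WT range, which itself was split between a low and a high pair (limma adjusted p = 0.949). Cldn18, a claudin of stomach and lung, had 2 reads each in KO5 and WT8 and 0 in the other 6 libraries. Cldn25, annotated as a processed pseudogene, had 0 reads in all 8 libraries, which allows up to 3 reads in each, counting error only.

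**Figure D2:**
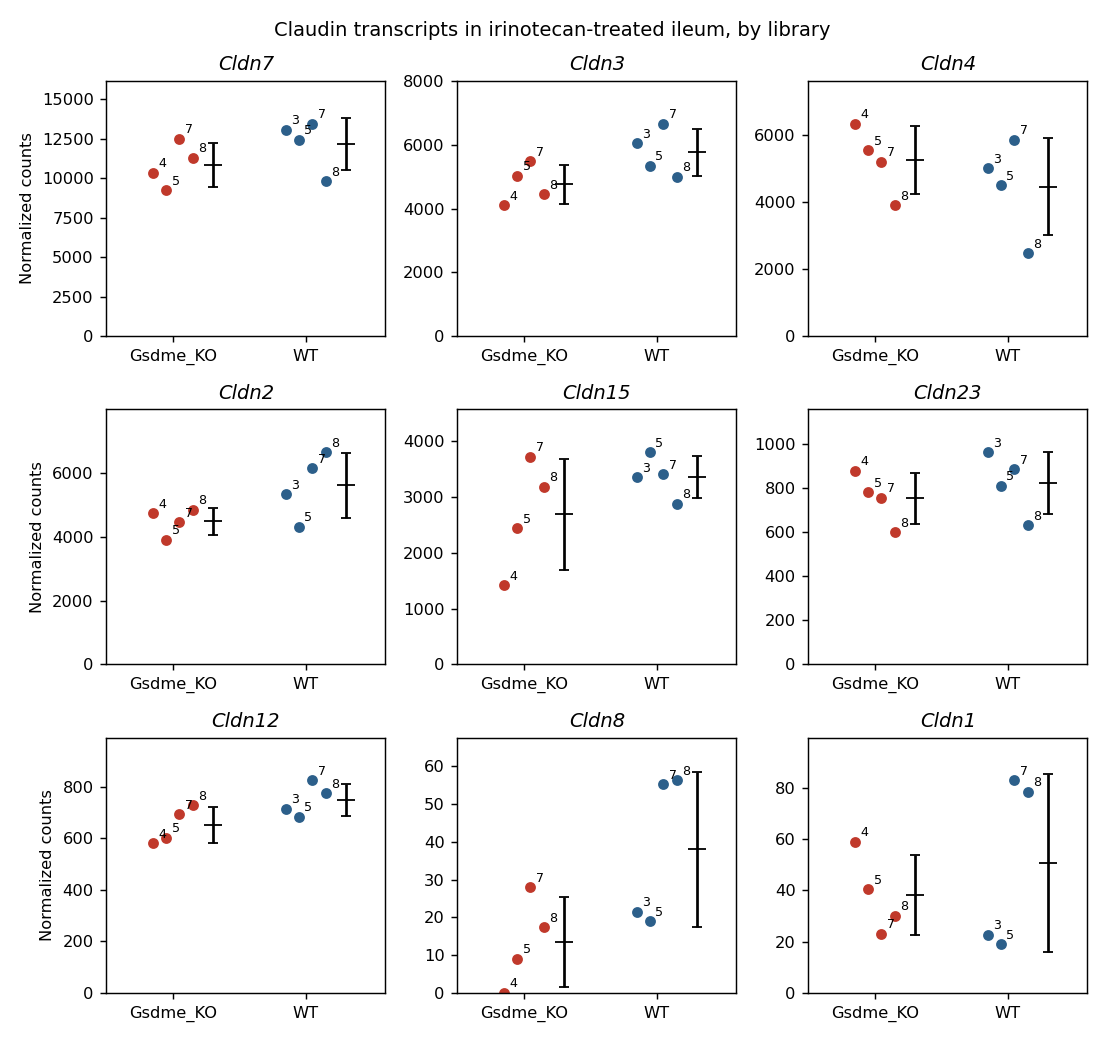
Normalized counts of the 9 tested claudins in each library, with an axis from 0 for each gene (red, Gsdme_KO on the left; blue, WT on the right; the number beside a point is that of the library; bar and whiskers, mean and SD, n = 4). The genotypes overlap in all 9 panels, with KO4 lowest for Cldn15 and WT8 lowest for Cldn4.

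Ocln, which encodes occludin, had the lowest unadjusted p of the members. Occludin and the tricellulin gene Marveld2 belong with Marveld3 to the proteins of the tight junction that share the MARVEL domain, and all 3 had lower means in Gsdme_KO. Ocln (ENSMUSG00000021638, chromosome 13, 100496507 to 100552718, minus strand) had 1842, 2205, 2532 and 1928 normalized counts in KO4, KO5, KO7 and KO8, against 3278, 2340, 2837 and 2777 in WT3, WT5, WT7 and WT8. KO4, KO5 and KO8 lay below every WT library and KO7 lay above WT5 alone. The Gsdme_KO mean was 75.7% of the WT mean (2126 ± 311 in Gsdme_KO and 2808 ± 384 in WT, SD, n = 4 each), a log2 fold change of -0.40. The SE was 0.133 and the 95% interval -0.70 to -0.10, with an unadjusted p of 0.0149 and an adjusted p of 0.849, both by limma. The log2 fold change was -0.34 without KO4 and KO5 and -0.35 with the epithelial score as a covariate, and no setting called it. Marveld2 had 506, 659, 738 and 740 in KO4, KO5, KO7 and KO8, against 840, 724, 797 and 699 in WT3, WT5, WT7 and WT8 (log2 fold change -0.22, limma adjusted p = 0.849). KO4 and KO5 were its low libraries. Marveld3 had 1428, 1260, 1218 and 1075 in KO4, KO5, KO7 and KO8, against 1235, 1597, 1203 and 1218 in WT3, WT5, WT7 and WT8, with WT5 above the rest (log2 fold change -0.07, limma adjusted p = 0.919).

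The 150 bases before the start of 4 of these genes are shown because Ocln had the lowest unadjusted p, Cldn4 and Cldn15 lay at opposite ends of the fold changes of the abundant claudins, and Cldn2 is the pore-forming partner of Cldn15. They are RefSeq sequences of GRCm38.p6, 5′ to 3′ on the strand of the gene and from its most upstream RefSeq start, at chr13:100552719-100552868 (minus) for Ocln, chrX:139800658-139800807 (plus) for Cldn2, chr5:136967719-136967868 (plus) for Cldn15 and chr5:134946935-134947084 (minus) for Cldn4. The Cldn15 window lies inside the GENCODE gene, which starts further upstream. Capitals mark matches on either strand to any of 4 motifs. They are TATAAA for the core of the TATA box, GGGCGG for that of the GC box, CACCTG for one E-box, and TTTATG for the core bound by CDX factors.
Ocln: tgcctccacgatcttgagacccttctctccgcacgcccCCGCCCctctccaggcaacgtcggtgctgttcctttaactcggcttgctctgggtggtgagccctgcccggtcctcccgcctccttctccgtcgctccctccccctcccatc
Cldn2: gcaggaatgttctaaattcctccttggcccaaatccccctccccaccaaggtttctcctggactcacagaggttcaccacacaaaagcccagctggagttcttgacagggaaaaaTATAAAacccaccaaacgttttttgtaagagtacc
Cldn15: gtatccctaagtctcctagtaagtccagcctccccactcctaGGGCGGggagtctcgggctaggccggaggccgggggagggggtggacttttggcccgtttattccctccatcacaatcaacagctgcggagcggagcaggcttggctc
Cldn4: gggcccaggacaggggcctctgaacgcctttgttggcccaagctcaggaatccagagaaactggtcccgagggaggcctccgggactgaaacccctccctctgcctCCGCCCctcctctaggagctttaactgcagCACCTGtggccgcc

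In these windows Cldn2 held a TATA box core, Ocln, Cldn15 and Cldn4 each held a GC box core, and Cldn4 also held CACCTG. RefSeq windows were matched for 25 of the 37 members, counting every listed start of a gene. GGGCGG stood in 19 of the 25 (76%) and in 55.2% of 11682 tested or member genes with a window, and CACCTG in 8 of 25 (32%) and in 11.6%. TATAAA stood in 3 of 25 (12%) and in 5.09%, and TTTATG in 2 of 25 (8%) and in 4.03%. A match is a description of these letters and not a site.

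The scaffold genes of the tight junction showed no call, with 3 of 4 lower in mean. Tjp3, which encodes ZO-3, had 2751, 3428, 3275 and 3244 normalized counts in KO4, KO5, KO7 and KO8, against 3345, 3404, 3961 and 3289 in WT3, WT5, WT7 and WT8 (log2 fold change -0.14, limma adjusted p = 0.849). Cgn, which encodes cingulin, had 3463, 3038, 3835 and 3478 in KO4, KO5, KO7 and KO8, against 3686, 3889, 3808 and 4087 in WT3, WT5, WT7 and WT8. KO4, KO5 and KO8 lay below every WT library of Cgn, and KO7 lay among them (log2 fold change -0.17, SE 0.0878, limma adjusted p = 0.849). Tjp1, which encodes ZO-1, averaged 2676 ± 236 in Gsdme_KO and 2790 ± 271 in WT (SD, n = 4 each; limma adjusted p = 0.92). Cgnl1, which encodes paracingulin, ran the other way, at 449, 422, 356 and 365 in KO4, KO5, KO7 and KO8, against 347, 343, 325 and 388 in WT3, WT5, WT7 and WT8, where KO4 and KO5 exceeded every WT library (log2 fold change 0.18, limma adjusted p = 0.849).

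Of the 3 junctional adhesion molecules, F11r, which encodes JAM-A of epithelia, leukocytes and platelets, had 7307, 6027, 6047 and 5278 in KO4, KO5, KO7 and KO8, against 6781, 6742, 6607 and 6248 in WT3, WT5, WT7 and WT8. KO4 was above and the other 3 Gsdme_KO libraries below every WT library (log2 fold change -0.11, limma adjusted p = 0.86). Jam3 had 244, 233, 213 and 233 in KO4, KO5, KO7 and KO8, against 252, 216, 175 and 230.1 in WT3, WT5, WT7 and WT8 (log2 fold change 0.09, limma adjusted p = 0.901). Jam2, best known from endothelium, averaged 354 ± 37.3 in Gsdme_KO and 366 ± 53.0 in WT (SD, n = 4 each; limma adjusted p = 0.955). Jam3 shares 36.2% of its exon bases with the antisense gene Gm48796, so its reads are uncertain. A list of 9 endothelial markers summed to 3151 to 4565 normalized counts in Gsdme_KO and 3025 to 3579 in WT, with KO4 the highest.

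Of the 6 genes in the list of cadherins, catenins and Epcam, 5 had lower means and 1 a higher mean, with log2 fold changes from -0.25 to 0.02. Cdh1 averaged 17968 ± 945 normalized counts in Gsdme_KO and 18087 ± 1347 in WT (SD, n = 4 each), a log2 fold change of -0.01 with a 95% interval from -0.24 to 0.22 (limma adjusted p = 0.99). Its partner Ctnnb1 averaged 17580 ± 799 in Gsdme_KO and 18910 ± 973 in WT, and Ctnna1, which encodes alpha-catenin, 9954 ± 660 in Gsdme_KO and 10308 ± 673 in WT (SD, n = 4 each). Ctnnd1, which encodes p120-catenin, averaged 2181 ± 171 in Gsdme_KO and 2146 ± 198 in WT, but 61.2% of its exon bases are shared with the overlapping gene model Gm28635, so its level is uncertain. For Ctnnb1, KO4, KO7 and KO8 lay below every WT library and KO5 lay among them (log2 fold change -0.10, limma adjusted p = 0.849). Ctnnb1 shares 14.6% of its exon bases with Ulk4 on the opposite strand.

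Cdh17 had 27183, 25484, 30542 and 28335 in KO4, KO5, KO7 and KO8, against 31989, 31704, 29511 and 26120 in WT3, WT5, WT7 and WT8. KO5 was the lowest and WT8 the next lowest (log2 fold change -0.10, limma adjusted p = 0.891). Epcam, whose loss in people causes a congenital enteropathy and whose protein stabilises Cldn7, had 34389, 36133, 45984 and 39312 in KO4, KO5, KO7 and KO8, against 50707, 45238, 49750 and 38894 in WT3, WT5, WT7 and WT8. KO4 and KO5 lay below every WT library (log2 fold change -0.25, SE 0.154, limma adjusted p = 0.849). Without KO4 and KO5 the log2 fold change of Epcam was -0.11, and with the epithelial score as a covariate it was -0.16.

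The 5 desmosome genes lay close together, with log2 fold changes from -0.14 to 0.04. Dsg2, the desmoglein of simple epithelia, had 8407, 7880, 9248 and 7764 in KO4, KO5, KO7 and KO8, against 10098, 7868, 9237 and 9574 in WT3, WT5, WT7 and WT8 (log2 fold change -0.14, limma adjusted p = 0.849). Dsc2, the desmocollin it pairs with, had 6083, 5944, 6231 and 5535 in KO4, KO5, KO7 and KO8, against 6796, 6287, 6651 and 6211 in WT3, WT5, WT7 and WT8. For Dsc2 the genotypes overlapped only in that KO7 lay above WT8 (log2 fold change -0.13, SE 0.0773, limma adjusted p = 0.849). Dsp, which encodes desmoplakin, averaged 8886 ± 308 in Gsdme_KO and 9594 ± 1047 in WT, and Pkp2, which encodes plakophilin 2, 1105 ± 30.0 in Gsdme_KO and 1122 ± 99.0 in WT (SD, n = 4 each). Jup, which encodes plakoglobin, averaged 5691 ± 220 in Gsdme_KO and 5561 ± 648 in WT, with WT8 the lowest at 4591.

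Among the polarity genes, Crb3, the Crumbs protein of epithelia, had 1155, 1160.2, 1188 and 1122 in KO4, KO5, KO7 and KO8, against 1240.2, 1325, 1156 and 919.6 in WT3, WT5, WT7 and WT8, and all Gsdme_KO libraries lay within the WT range (limma adjusted p = 0.991). Prkci, an atypical protein kinase C, had 1136, 1018, 1121 and 1078 in KO4, KO5, KO7 and KO8, against 1096, 1041, 1093 and 1203 in WT3, WT5, WT7 and WT8 (limma adjusted p = 0.951). Neither differed beyond the spread of its libraries. Patj, a scaffold of the Crumbs complex, averaged 1724 ± 278 in Gsdme_KO and 2059 ± 277 in WT, and Pard3, a scaffold of the Par complex, 675 ± 116 in Gsdme_KO and 757 ± 121 in WT (SD, n = 4 each; limma adjusted p = 0.849 for Patj and 0.851 for Pard3). Both were lowest in KO4.

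Mylk, which encodes the myosin light chain kinase that contracts the perijunctional actin ring, had 10921, 15853, 15948 and 15406 normalized counts in KO4, KO5, KO7 and KO8, against 17311, 15047, 16044 and 17389 in WT3, WT5, WT7 and WT8. KO4 alone lay below the rest (log2 fold change -0.19, SE 0.142, limma adjusted p = 0.849), and without KO4 the log2 fold change was -0.06. The gene also encodes the smooth muscle form of the kinase, and the counts do not separate the forms. A list of 8 smooth muscle markers summed to 51078, 80627, 53695 and 54388 in the 4 Gsdme_KO libraries in that order, against 52825 to 66649 in WT. KO4 was the lowest of the 8 libraries for 4 of these markers (Acta2, Myh11, Smtn and Synpo2), but for Des it had 11719 normalized counts, above every WT library (7710 to 9289).

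**Figure D3:**
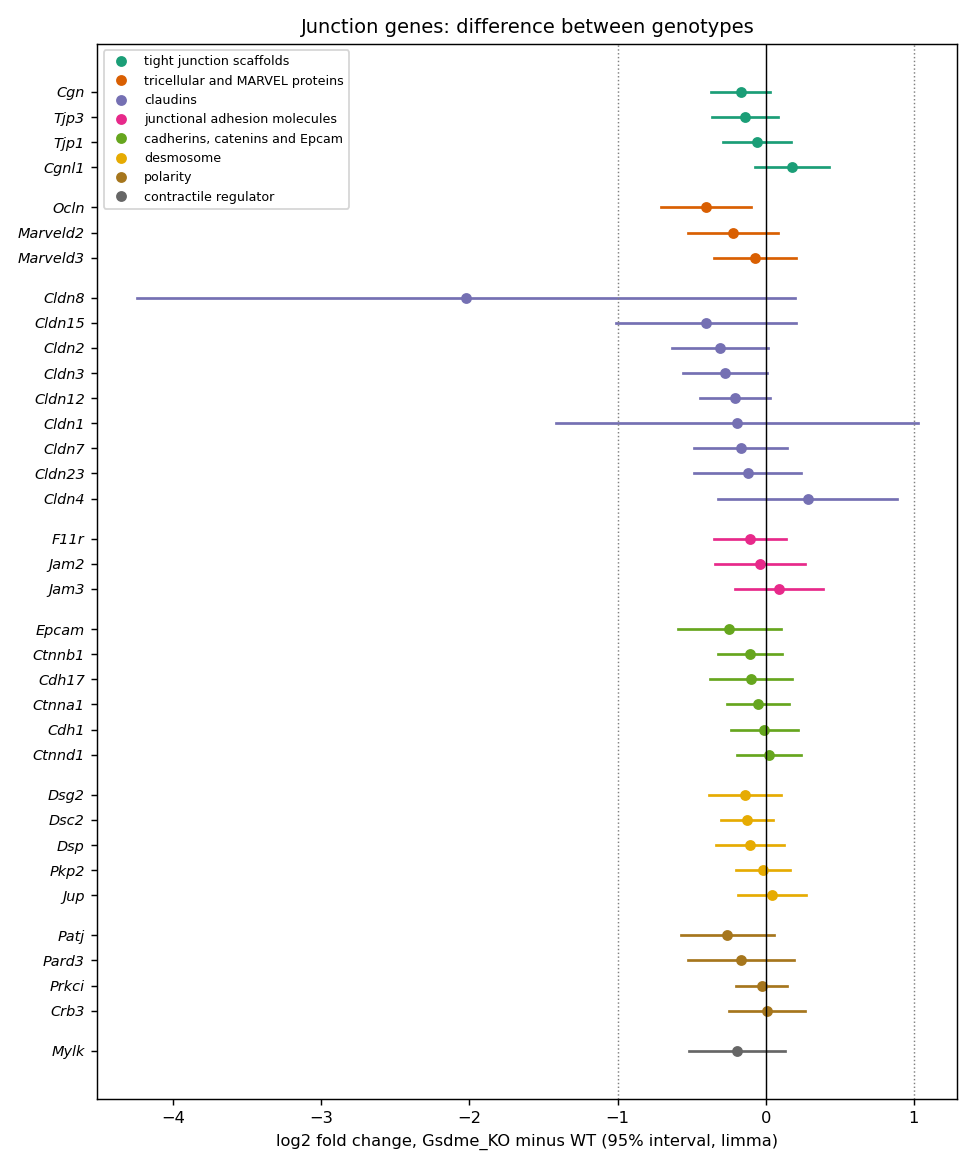
Log2 fold change of the 35 tested junction genes, Gsdme_KO minus WT, with 95% limma intervals, coloured by role; dotted lines mark a 2-fold change either way. Of the 35 points, 29 lie below 0 and the intervals of all but Ocln include 0.

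For most members the interval bounds the difference closely. The 95% interval lay within a 1.5-fold change either way for 28 of 35 members (80%) and within a 2-fold change for 32 (91.4%), against 52.5% and 76.9% of all genes tested. The members are more abundant than most genes, with a median of 3029 normalized counts against 315, and a median SE of 0.122 on the log2 scale against 0.178. The 7 members whose interval reached past 1.5-fold were Ocln, Cldn1, Cldn2, Cldn4, Cldn8, Cldn15 and Epcam, and those that reached past 2-fold were Cldn1, Cldn8 and Cldn15. A limma step of this kind was run 3 times on simulated counts of 16352 genes, with 200 changed 2-fold per run. It recovered 40.8% of the changed genes, with 16 false calls. The changed genes were drawn from all genes tested, so the share for the more abundant members was not measured. Changes smaller than 2-fold were not simulated. Noise was drawn for each gene separately, so differences that many genes share in a library, as in KO4 and KO5, were not included. A missed call does not show equal levels.

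By library, the median deviation of the 35 members from the WT mean was -0.10, -0.13, 0.00 and -0.12 (log2) in KO4, KO5, KO7 and KO8, against 0.08, -0.04, 0.07 and -0.06 in WT3, WT5, WT7 and WT8. KO8 had 31 of 35 members below the WT mean, KO5 30, KO4 22 and KO7 17, against 8 to 26 in the WT libraries. KO4 was the lowest of the 8 libraries for 11 members and the highest for 3, and KO5 and KO8 were each the lowest for 6 and the highest for 0, while KO7 was the lowest for 0 and the highest for 2. WT3 was the lowest for 0 and the highest for 10, WT5 the lowest for 5 and the highest for 3, WT7 the lowest for 3 and the highest for 10, and WT8 the lowest for 4 and the highest for 7. These counts were not made over all genes tested, so they are not shown to be particular to the junction genes. Each WT library is also part of the WT mean that it is set against, unlike the Gsdme_KO libraries. Among the members, KO4 was the lowest library for Cldn15, Ocln, Marveld2 and Mylk and the highest for Cldn4, Cgnl1 and F11r.

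**Figure D4:**
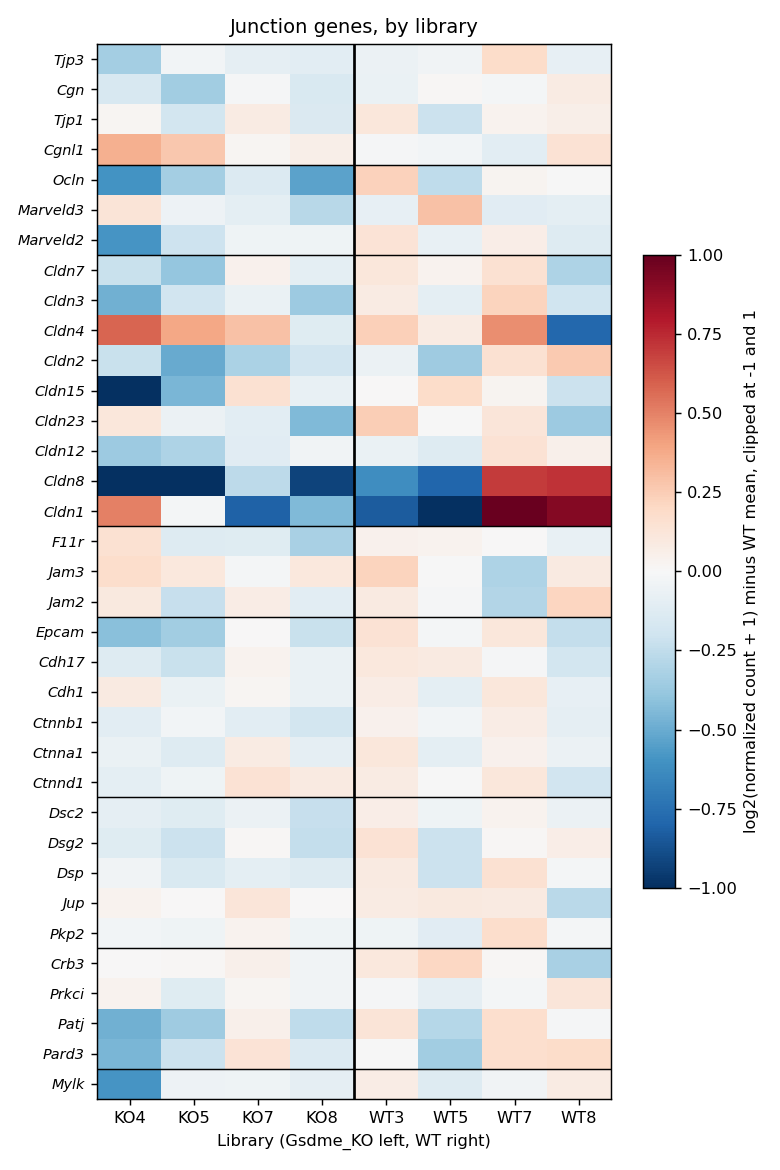
Deviation of each of the 35 tested junction genes from its WT mean in each library, on the log2(normalized count + 1) scale, clipped at -1 and 1 (blue, lower; red, higher; Gsdme_KO libraries left of the line, WT right; roles separated by lines). KO4 is the lowest library for 11 genes, and the low-count claudins Cldn8 and Cldn1 vary most.

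Ratios of 2 members within a library do not depend on sequencing depth. Of the 8 ratios compared, none passed after adjustment over the 8 (smallest adjusted exact p = 0.457). Cldn4 over Cldn3 was 1.55, 1.11, 0.952 and 0.877 in KO4, KO5, KO7 and KO8, against 0.8287, 0.842, 0.881 and 0.495 in WT3, WT5, WT7 and WT8. KO8 lay just below the highest WT library and the other Gsdme_KO libraries above all WT (difference in mean log2 ratio 0.56, exact permutation p = 0.0571, two-sided, adjusted 0.457). Ctnnb1 over Cdh1 ran from 0.918 to 1.08 in Gsdme_KO and from 1.02 to 1.10 in WT (difference -0.10, exact permutation p = 0.114, adjusted 0.457). Cldn2 over Cldn15 was 3.32 in KO4 and 1.19 to 1.603 in the other Gsdme_KO libraries, against 1.13 to 2.31 in WT (exact permutation p = 0.857). Dsg2 over Dsc2 stayed between 1.33 and 1.48 in Gsdme_KO and between 1.25 and 1.54 in WT (exact permutation p = 0.857). The remaining ratios, Cldn2 over Cldn3, Cldn15 over Cldn7, Cdh17 over Cdh1 and Tjp3 over Tjp1, gave exact permutation p-values from 0.371 to 0.943.

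**Figure D5:**
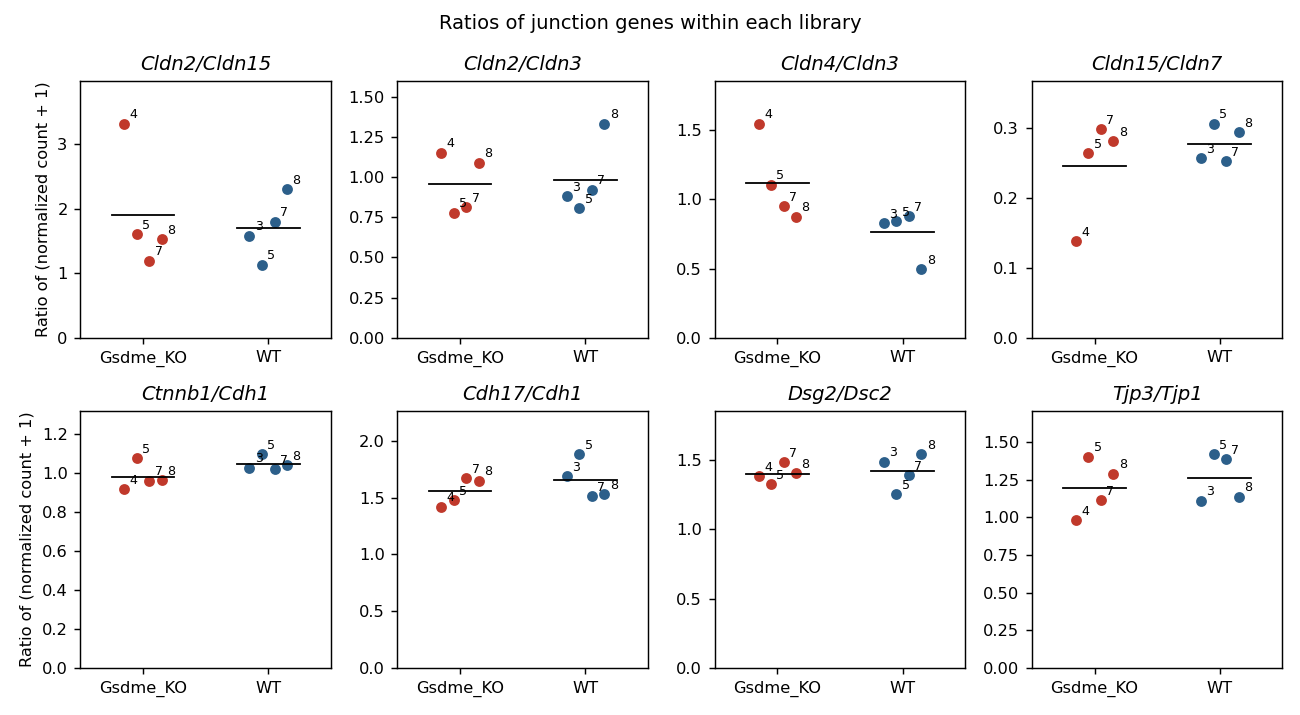
Ratios of (normalized count + 1) of 2 junction genes within each library (red, Gsdme_KO on the left; blue, WT on the right; the number is that of the library; line, arithmetic mean of 4 libraries). Cldn4 over Cldn3 is highest in KO4 at 1.55 and lowest in WT8 at 0.495, and the genotypes overlap in all 8 panels.

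Other junction genes that are not members showed no call either. Of 85 symbols listed, 84 matched and 69 were tested, with 0 called by limma, edgeR or DESeq2 and at an unadjusted p under 0.05 by limma 1 higher and 2 lower. Higher means in Gsdme_KO numbered 35 and lower means 34, with a median log2 fold change of 0.01, and no gene had libraries that did not overlap. Over all genes tested, limma and edgeR each called 0.00612% and DESeq2 0.0553%. At an unadjusted p under 0.05 limma listed 2.61% higher and 1.77% lower, and libraries did not overlap for 2.5%. The 3 genes of unadjusted p under 0.05 are named here after their values were seen. Cxadr, a cell adhesion receptor of the tight junction that binds coxsackie and adenoviruses, had 4041, 3363, 4220.3 and 3469 in KO4, KO5, KO7 and KO8, against 4887, 4211, 4577 and 5255 in WT3, WT5, WT7 and WT8 (log2 fold change -0.33, SE 0.107, limma adjusted p = 0.849). KO7 was the only Gsdme_KO library above the lowest WT library. For Magi3, a junction scaffold with PDZ domains, the log2 fold change was -0.35 (SE 0.118, limma adjusted p = 0.849), and for Cdh5, the cadherin of endothelium, it was 0.33 (SE 0.14, limma adjusted p = 0.849).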

How the data were processed

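The table holds normalized signal that the authors deposited: read counts per gene divided by 1 size factor per library. Tools listed in the submitters' processing notes are HISAT2 and SAMtools, with featureCounts of Subread and DESeq2; the build is GRCm38. Per the labels, libraries were strand-specific and poly(A)-selected. The sources used here give neither versions nor annotation, nor whether counting used strand. Whole reads were recovered (100% of values within 0.01 reads). Header numbers do not match the label numbers, so columns were assigned to a genotype only.

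Members and lists were chosen with earlier results of these data known. Tests used limma 3.58.1 (trend) in R 4.3.3 on log2(normalized count + 1) for genes with a mean of at least 10, adjusted by Benjamini-Hochberg over all 16352. p-values measure the spread between 4 mice per genotype. Ratios and Gsdme used two-sided exact permutation tests (SciPy 1.17.1). Alternatives were pseudocounts of 0.5 and 5, no filter, a mean of at least 50, TMM, edgeR 4.0.16, DESeq2 1.42.0, each library left out, KO4 and KO5 left out, and a covariate of 12 epithelial markers. Per-library values are given for the tested claudins and for the 2 most abundant members per kilobase of each other role; the remaining members are summarised or, where given by library (Cgnl1, Marveld2), were chosen after their values were seen. Positions, exon lengths and overlaps are from GENCODE M21.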

Additional observations from a re-analysis of the deposited data

Results flagged for a closer look

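Across 86 groups of 4 libraries (the 35 members and 8 ratios in each genotype), 4 held a library far from the other 3, and chance flags about 1 group in 20. Mylk had 10921 normalized counts in KO4, far below the other 3 Gsdme_KO libraries. Marveld3 had 1597 in WT5, far above the other WT libraries, and Jup had 4591 in WT8, far below them. The ratio of Cldn4 to Cldn3 was 0.495 in WT8, far below the other WT libraries.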

How the results depend on the processing

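No junction member was called in any of 17 alternatives, where the smallest adjusted p was 0.423 (Ocln, DESeq2). The members with a lower mean numbered 26 to 30 with 1 library left out, and 23 of 35 kept their sign in all settings. Over all genes, DESeq2 called 9 and limma 0 to 1 with 1 library left out. The Gsdme log2 difference was -3.71 to -2.88 with 1 library left out, where no exact p under 0.0571 is possible, and -2.37 without KO4 and KO5 (smallest possible 0.133). Signs turned in DESeq2 for Crb3 (-0.0040), and without KO4 and KO5 for Cldn15 (0.040), Pard3 (0.0021) and the log2 ratios Cldn2 over Cldn15 (-0.29), Cldn15 over Cldn7 (0.067), Cdh17 over Cdh1 (0.010) and Dsg2 over Dsc2 (0.031); the cause was not tested. With 1 library left out, log2 fold changes crossed 0 for Ctnnd1 (-0.040 to 0.065), Prkci (-0.055 to 0.014), Cdh1 (-0.042 to 0.029), Marveld3 (-0.14 to 0.024), Jam3 (-0.0098 to 0.17), Jup (-0.049 to 0.074), Pkp2 (-0.056 to 0.040), Cldn1 (-0.55 to 0.14), Jam2 (-0.14 to 0.031) and Crb3 (-0.10 to 0.076). So did the log2 ratios Cldn2 over Cldn15 (-0.21 to 0.28), Cldn2 over Cldn3 (-0.13 to 0.12), Cldn15 over Cldn7 (-0.35 to 0.022), Dsg2 over Dsc2 (-0.074 to 0.027) and Tjp3 over Tjp1 (-0.16 to 0.0093). A mean of at least 50 drops Cldn1 and Cldn8, whose few reads limit their precision. No paired analysis was possible because the library numbers in the table cannot be tied to the replicate numbers in the labels.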

Other observations

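Junction genes of low level outside the members were read after the values were seen. Dsg3, a desmoglein of stratified epithelia, had 141, 70.6, 21.9 and 18.3 normalized counts in KO4, KO5, KO7 and KO8, against 21.6, 16.7, 15.5 and 27.3 in WT3, WT5, WT7 and WT8 (log2 fold change 1.15, SE 0.611, limma adjusted p = 0.849). KO4 and KO5, the libraries of high B cell marker sums (9233 and 5237 normalized counts), were the high ones. Cldn9 had 57.8 in KO5 and 1.83 to 6.45 in KO4, KO7 and KO8, against 3.31 to 15.5 in WT (limma adjusted p = 0.95). The part of other cell types in these values was not tested.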
